A study of Mus musculus with 28 samples.

Results

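The livers of 4 wild-type mice fed ethanol plus ellagic acid (EtOH+EA) were set against those of 4 wild-type mice fed the control diet. The arrays were chosen by their titles alone, as 8 of the 28 arrays of the study, and 45037 of the 45101 probe sets on the array were analysed, since 64 are array controls. All mice were C3H/HeN, labelled female and 5 weeks old before the diets, and received a Lieber-type liquid diet of equal calories, freely for 1 week and then at 12 g per day for 4 weeks. The EtOH+EA diet held ethanol and about 50 mg of ellagic acid per kg body weight per day, the control diet held water in place of ethanol, no polyphenol and more maltose and dextrin, and all livers were taken at the same morning hour. The wild-type groups EtOH (ethanol alone) and EtOH+RSV (ethanol with about 50 mg of trans-resveratrol per kg per day), of 4 mice each, entered the same fit. The 12 mice deficient in CAR, the constitutive androstane receptor, 3 per diet, were measured too, on arrays that the authors summarised apart. The EtOH+EA diet differed from control in ethanol, ellagic acid and carbohydrate together, and the parts of each in a difference from control cannot be told apart. The difference between EtOH+EA and EtOH is the one that holds ellagic acid alone.

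The liver clears ethanol by alcohol and aldehyde dehydrogenases and by cytochrome P450 enzymes, and it meets foreign compounds with a set of genes that the nuclear receptors CAR and PXR switch on. It also binds zinc and copper with metallothioneins, makes the acute phase proteins of the blood, turns ammonia into urea, and runs a daily clock that sets many of its enzymes. Ellagic acid is a plant polyphenol that forms from tannins and passes into barrel-aged spirits.

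Levels are the log2 values that the authors deposited after Distribution Free Weighting (DFW). Since DFW stretches or shrinks the variation of single probe sets, differences between group means are on this deposited scale and do not translate into fold changes. Over the 16 wild-type arrays 38404 probe sets (85.3%) had a standard deviation of at most 0.01 and are called compressed here. Array medians lay between 6.69 and 6.70 and upper quartiles between 7.48 and 7.50. Pearson's r between arrays was 0.99799 to 0.9985 within EtOH+EA, 0.99643 to 0.99927 within control, and 0.98784 to 0.99411 between the groups. Control replicate 1 stood apart most, with a standard deviation of 0.195 from its group mean over uncompressed probe sets, against 0.103 to 0.111 for the other control arrays and 0.107 to 0.122 for the EtOH+EA arrays. The number of arrays, 4 per group, limits the precision, and p-values measure the spread between single mice.

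The labels call all mice female, and sex-linked transcripts were looked at on the arrays. The 3 probe sets of Xist, the RNA that silences an X chromosome in females, were at 5.98, 6.11 and 6.47 on all 16 wild-type arrays, at or below the 34.4th percentile of the array. Of the 2 probe sets of the Y-linked gene Eif2s3y, 1 was at 9.17, between the 91.9th and the 92.2nd percentile, and the other at 6.02, at or below the 5.23th. The 3 probe sets of the Y-linked Kdm5d lay between the 12.2th and the 72.4th percentile and the 4 of Uty between the 15th and the 73.7th. These probe sets of Xist, Eif2s3y, Kdm5d and Uty hardly varied over the 16 arrays. Hsd3b5, a steroid dehydrogenase of male mouse liver, was at 12.23 to 12.48 on the control arrays and differed between the groups, as described below. The sex of the mice is given here only as the label states it. Hepatocyte markers stood high on every array, 10 of 10 of them above the 90th percentile. The probe set of Nr1i3, the gene of CAR, gave 9.75 to 10.10 on EtOH+EA arrays and 9.22 to 9.65 on control arrays (adjusted p = 0.052). On the 12 arrays of CAR-deficient mice the Nr1i3 probe set gave 8.55 to 9.49, and so did not check the label of CAR deficiency.

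The EtOH+EA livers differed from control livers in many genes. By limma's moderated test with the 4 wild-type diets in 1 fit, 2729 probe sets were higher and 3669 lower in EtOH+EA at an adjusted p under 0.05, together 14.2% of the 45037. By their definition, a small spread over arrays that include both groups, compressed probe sets can hold only small differences. The 3618 called probe sets that are compressed differed by 8.2e-05 to 0.02 (median 0.0004), while the 2780 others differed by 0.019 to 3.88 (median 0.35), with 78 higher and 46 lower by 1 or more. Where each gene was represented by its probe set of highest mean level, 1504 of 18193 genes were higher (8.27%) and 1752 lower (9.63%). Among the 3855 genes with an uncompressed probe set 15.3% were higher and 27.8% lower. Counts of gene lists are over all measured members, and a list near either pair of shares does not stand apart. A list of mostly uncompressed members is to be read beside the second pair. Counts among uncompressed members are printed for the splicing, cytosolic chaperone, endoplasmic reticulum stress sensor and bile acid lists. Each list was also counted with each of the 8 arrays left out in turn, an alternative chosen after seeing the data: in 34 of 46 gene and marker lists a count then moved by over 1.5 times, or to or from 0, in at least 1 of the 8 fits, and the counts and arrays stand beside those lists. The direction of the calls depended on the scaling: 42.7% of called probe sets were higher with the values as deposited, 60.7% after quantile normalization between arrays and 33.1% after centring each array on its median. The arrays of the groups did not overlap in 27.3% of genes.

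**Figure D1:**
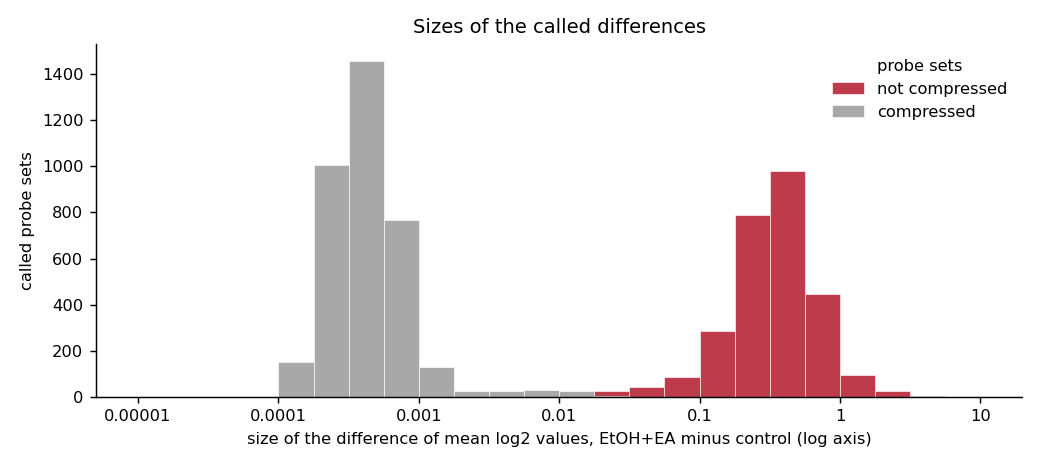
Number of probe sets past the threshold by the size of the difference of mean log2 values, EtOH+EA minus control, on a log axis, with probe sets that are not compressed in red and compressed ones in grey. Compressed probe sets lie at or under 0.02 with a median of 0.0004, and the others reach 3.88 with a median of 0.35. The definition of compressed, a small spread over arrays of both groups, sets this split.

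The largest differences were those of the cytochrome P450 gene Cyp2b10 and the metallothioneins Mt2 and Mt1 among the higher genes, and of the steroid dehydrogenase Hsd3b5, Adgrv1 and Tff3 among the lower ones. The genes named are the 15 higher and 15 lower genes of largest difference that passed the threshold, were not compressed and whose arrays did not overlap between the groups. For these genes, here and below, a lack of overlap was a condition of the choice and no further result. Beside the cytochromes and metallothioneins described below, the higher ones held Meg3 (an imprinted noncoding RNA), Egr1 (an immediate early transcription factor), Cyp26a1 (which degrades retinoic acid), Slc16a5 (a monocarboxylate transporter), Dclre1a (a DNA crosslink repair nuclease), Gpcpd1 (a glycerophosphocholine phosphodiesterase), Cyp2g1 and Acot3 (a peroxisomal acyl-CoA thioesterase). The lower ones held Adgrv1 (a very large adhesion receptor), Tff3 (a trefoil peptide), Fabp5 (a fatty acid binding protein), Slc41a2 (a magnesium transporter), Tsc22d1, Tubb2a (a beta tubulin), Dct, Dnaic1, Hdhd3 and Hexim1. The call of Acot3 was lost without control replicate 1 (adjusted p = 0.053) or without EtOH+EA replicate 4 (0.051). The call of G6pc was lost without EtOH+EA replicate 3 (0.052).

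Tff3 had 6.66, 6.68, 6.71 and 7.05 in EtOH+EA livers, against 8.61, 9.10, 8.49 and 8.77 in control livers. The difference was -1.97 ± 0.12 (standard error, adjusted p = 8.4e-06), and the highest EtOH+EA array lay more than 1 unit below the lowest control array. Cyp26a1 had 9.73, 9.46, 9.73 and 9.29 in EtOH+EA livers, against 7.91, 7.47, 7.22 and 7.89 in control livers, a difference of 1.93 ± 0.22 (adjusted p = 0.00028). Adgrv1 had 7.71, 7.97, 7.72 and 7.22 in EtOH+EA livers, against 9.52, 9.44, 9.78 and 9.89 in control livers (adjusted p = 0.00018). That the groups did not overlap in these 3 genes was a condition of their choice. Meg3 had 9.27, 8.43, 9.77 and 9.12 in EtOH+EA livers, against 7.06, 7.00, 7.01 and 7.23 in control livers (difference 2.07 ± 0.33, adjusted p = 0.0016), and 9 of the 11 probe sets that name Meg3 alone were higher, none lower.

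**Figure D2:**
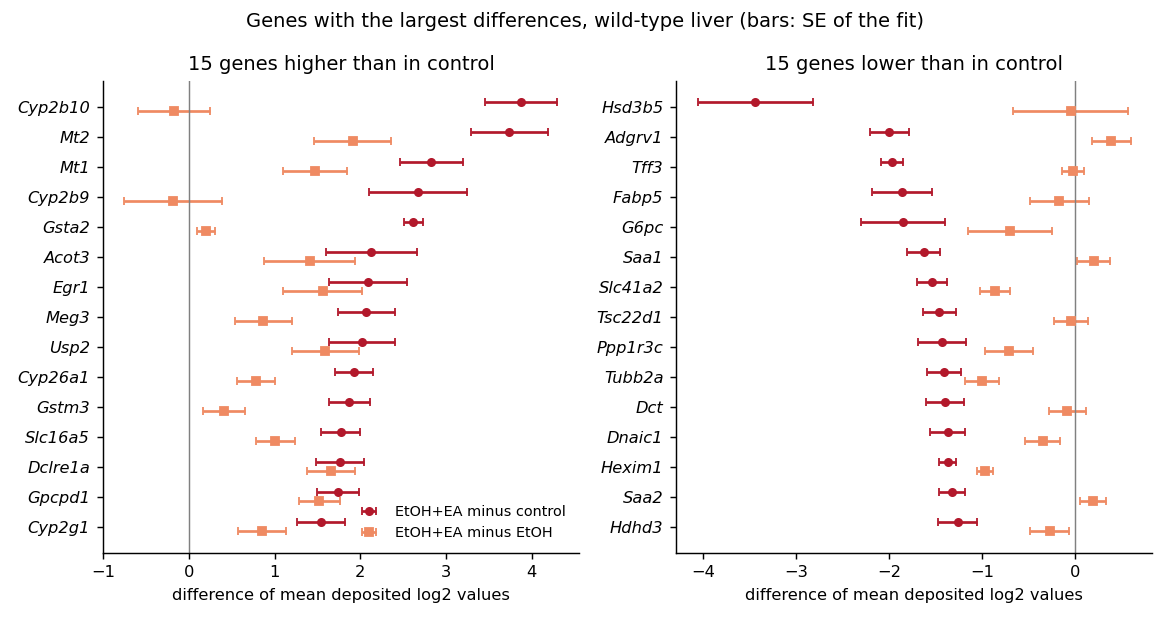
Difference of mean log2 values with its standard error for the 15 genes higher and the 15 lower by most in EtOH+EA than in control, with EtOH+EA minus control in red circles and EtOH+EA minus EtOH in orange squares. Cyp2b10 (3.88 against control, -0.17 against EtOH) and Hsd3b5 (-3.44 and -0.05) lie near 0 against EtOH, while Dclre1a (1.76 and 1.66) and Gpcpd1 (1.74 and 1.52) have nearly the same value in both.

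The metallothioneins, small cysteine-rich proteins that bind zinc and copper and whose genes are switched on by zinc, glucocorticoids and stress, were among the genes of largest difference. Mt2 had 10.94, 10.12, 11.95 and 11.86 in EtOH+EA livers, against 7.45, 7.24, 7.59 and 7.63 in control livers, a difference of 3.74 ± 0.45 (adjusted p = 0.00035). Mt1 had 11.78, 11.49, 12.69 and 12.59 in EtOH+EA livers, against 9.31, 9.28, 9.41 and 9.25 in control livers, a difference of 2.83 ± 0.37 (adjusted p = 0.0006). The EtOH+EA arrays of both genes lay well above every control array, and replicates 3 and 4 were the higher ones of the group. Against EtOH livers Mt2 was higher by 1.91 ± 0.45 (adjusted p = 0.045), a call kept only without EtOH replicate 3 or EtOH+EA replicate 2 among the 8 fits that left out 1 array of these groups, and Mt1 by 1.47 ± 0.37 (adjusted p = 0.063, not past the threshold, and past it without EtOH replicate 3).

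Both genes lie next to each other on chromosome 8 of the mouse. The bases before their starts are printed because the genes moved together, with each match to the core of the metal response element (TGCACNC or TGCGCNC, either strand) in capitals. The sequences are RefSeq's, build GRCm38.p6, plus strand, 5′ to 3′, Mt2 at chr8:94172368-94172617 and Mt1 at chr8:94178839-94179088, each ending at the base before the start of the gene.
Mt2: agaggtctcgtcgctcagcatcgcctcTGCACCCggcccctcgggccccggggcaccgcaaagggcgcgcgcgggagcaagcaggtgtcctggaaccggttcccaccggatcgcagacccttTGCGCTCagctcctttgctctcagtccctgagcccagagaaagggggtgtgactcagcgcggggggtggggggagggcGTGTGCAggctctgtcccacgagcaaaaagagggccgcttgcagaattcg
Mt1: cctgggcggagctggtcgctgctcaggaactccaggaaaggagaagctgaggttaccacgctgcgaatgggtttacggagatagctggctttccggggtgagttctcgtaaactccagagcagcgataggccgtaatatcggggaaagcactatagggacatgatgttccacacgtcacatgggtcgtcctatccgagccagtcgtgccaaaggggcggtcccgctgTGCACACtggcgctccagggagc
Mt2 held 3 matches, starting 223, 128 and 50 bases before the gene, and Mt1 held 1, starting 23 bases before it. Of 32851 promoters of 250 bases 21.4% held the motif, and of the 7 measured genes of the metallothionein and zinc list that had a promoter sequence 5 did: Mt1, Mt2, Mt4, Slc30a1 and Slc30a10, the last with 3 matches. Slc30a10 was the gene of the list that was lower. A match of letters is a description and not a site.

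Of the 9 measured genes of metallothioneins and zinc handling, 4 were higher and 1 lower (median difference 0.15, against 4.5e-05 over all genes). Beside Mt1 and Mt2 the zinc importer Slc39a4 rose, with 8.94 to 9.10 in EtOH+EA livers and 8.42 to 8.48 in control livers (difference 0.56 ± 0.07, adjusted p = 0.0003). Mt3, the metallothionein of brain, passed with a difference of 0.00068 on a compressed probe set, and not with a replicate block (adjusted p = 0.073) or without control replicate 2 or 4 or EtOH+EA replicate 2 or 4 (up to 0.074). Slc30a10, an exporter of manganese, fell, with 7.33, 7.33, 7.23 and 7.17 in EtOH+EA livers, against 8.26, 8.23, 8.16 and 8.35 in control livers (difference -0.99 ± 0.10, adjusted p = 0.0001). It was also lower than in EtOH livers, by -0.74 ± 0.10 (adjusted p = 0.0048, kept in 8 of 8 fits that left out 1 array), whereas the fit gave -0.25 for EtOH minus control (adjusted p = 0.15). Of the 13 genes of hepcidin and iron handling 2 were higher (1 without control replicate 3 or 4) and 1 lower, the last being Cp, the copper oxidase ceruloplasmin (-0.19 ± 0.03, adjusted p = 0.00054).

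**Figure D3:**
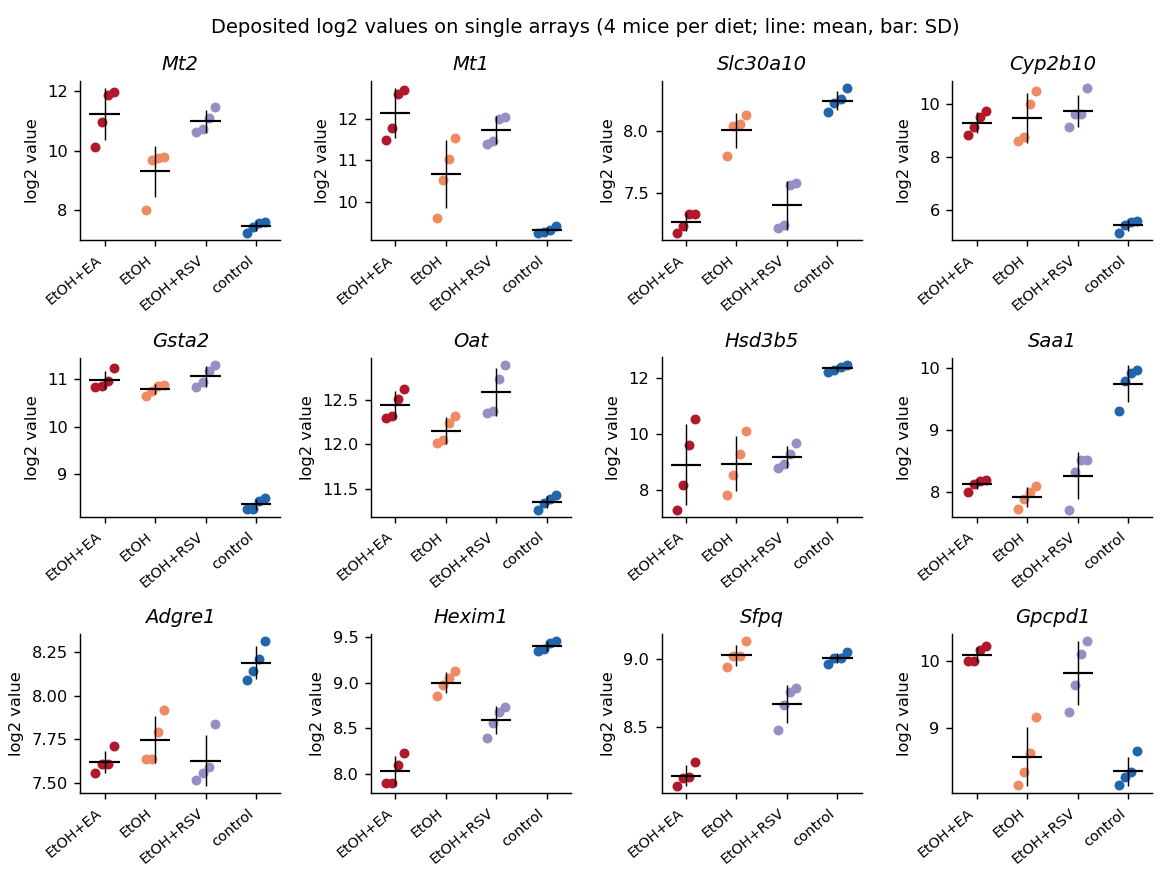
Deposited log2 values on each array for 12 genes in the 4 wild-type diets, 4 mice per diet, with EtOH+EA at the left and control at the right, a line at the mean and a bar of 1 SD. Mt2 and Mt1 lie highest in EtOH+EA and EtOH+RSV, Cyp2b10 and Gsta2 stand high in all 3 ethanol diets, and Sfpq lies lowest in EtOH+EA (8.07 to 8.25, against 8.96 to 9.05 in control).

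The xenobiotic genes that CAR is known to regulate rose as a group. Of 28 measured, 20 were higher and 0 lower, with a median difference of 0.73. Cyp2b10, the cytochrome P450 that serves as the classic readout of CAR, had 9.13, 8.83, 9.52 and 9.73 in EtOH+EA livers, against 5.12, 5.44, 5.54 and 5.59 in control livers (difference 3.88 ± 0.42, adjusted p = 0.00022). Gsta2, a glutathione transferase, had 10.97, 10.86, 10.85 and 11.25 in EtOH+EA livers, against 8.44, 8.26, 8.27 and 8.49 in control livers (difference 2.62 ± 0.11, adjusted p = 6.2e-07). The groups were far apart in both genes. Cyp2b9 had 9.64, 8.56, 11.13 and 9.62 in EtOH+EA livers, against 6.29, 6.69, 8.46 and 6.81 in control livers (difference 2.67 ± 0.57, adjusted p = 0.009), and replicate 3 was the highest array of both groups. Among the drug-metabolising cytochromes that are abundant in liver, Cyp2c29 rose by 1.14 ± 0.07 (adjusted p = 8.4e-06), Cyp2c38 by 1.19 ± 0.14, Cyp2c37 by 1.10 ± 0.14 and Cyp3a11 by 0.24 ± 0.02. The glutathione transferases Gstm3 (1.87 ± 0.24) and Gstm1 (0.99 ± 0.11) and the efflux pump Abcc3 (0.65 ± 0.09, adjusted p = 0.00091) rose too. The call of Aldh1a1, a retinal dehydrogenase, was lost with a replicate block (0.26 ± 0.07, adjusted p = 0.03, and 0.054 with the block), and also without control replicate 1, 3 or 4 or EtOH+EA replicate 1 or 3 (up to 0.079). None of the 28 passed in EtOH+EA against EtOH, where 1.56% of all genes were higher and 1.62% lower: the difference was -0.17 ± 0.42 for Cyp2b10 and 0.20 ± 0.11 for Gsta2. In EtOH against control, which shares the control arrays, 17 of the list were higher and 0 lower (2.99% and 4.01% over all genes), with 4.05 for Cyp2b10 and 2.42 for Gsta2.

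NRF2 is the factor that turns on antioxidant enzymes, and 7 of 18 measured targets were higher and 1 lower (median difference 0.05). The higher ones included the glutathione transferase Gsta4 (0.83 ± 0.07, adjusted p = 6.6e-05), the epoxide hydrolase Ephx1 (0.71 ± 0.14) and the heme oxygenase Hmox1, with 7.63 to 7.77 in EtOH+EA livers and 7.27 to 7.43 in control livers (0.30 ± 0.07, adjusted p = 0.0087). Nqo1, a quinone reductase, passed on a compressed probe set (0.00063, adjusted p = 0.0014). Srxn1, which repairs peroxiredoxins, passed with 0.40 ± 0.12 (adjusted p = 0.049) but not with a replicate block (0.1), and of the fits that left out 1 array it held only in the one without EtOH+EA replicate 1 (up to 0.13). Gclc, the subunit that limits glutathione synthesis, was the one that fell, with 10.76 to 11.27 in EtOH+EA livers and 11.61 to 11.71 in control livers (-0.64 ± 0.20, adjusted p = 0.049). That call was lost whichever of the 8 arrays was left out (adjusted p 0.051 to 0.13).

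The clock genes moved in opposite groups. The daily clock turns on a loop in which CLOCK and BMAL1 (gene Arntl) activate E-box genes, among them those of PER and CRY proteins, which then repress CLOCK and BMAL1. Of 10 measured circadian repressors 4 were higher and 0 lower (median difference 0.45), of 5 activators and their partners 0 were higher and 3 lower (-0.59), and of 6 clock output factors 4 were higher and 0 lower (0.84). With 1 array left out the counts were 4 and 0, 0 and 2 to 3, and 4 and 0. Among the 3 lower members of the list of activators and partners is Nfil3, itself a repressor. Per3 had 8.35, 8.67, 8.73 and 8.57 in EtOH+EA livers, against 7.20, 7.56, 7.63 and 7.79 in control livers, a difference of 1.03 ± 0.15 (adjusted p = 0.0011). Usp2, a deubiquitinase that cycles with the clock, had 9.11, 9.34, 9.68 and 9.37 in EtOH+EA livers, against 6.77, 7.12, 7.74 and 7.78 in control livers, a difference of 2.02 ± 0.39 (adjusted p = 0.0047). In both genes the groups were apart, and control replicate 1 was the lowest array.

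The other repressors that rose were Ciart (0.89 ± 0.19, adjusted p = 0.0089), Cry2 (0.61 ± 0.10, adjusted p = 0.0019) and Nr1d2, a heme receptor that represses Arntl (0.42 ± 0.09, adjusted p = 0.011). Per1 (0.82 ± 0.32, adjusted p = 0.11) and Per2 (0.48 ± 0.21, adjusted p = 0.16) did not pass, and Nr1d1 is on a compressed probe set (adjusted p = 0.75). Of the outputs, the PAR leucine zipper factors Dbp and Tef rose by 0.81 ± 0.20 and 0.86 ± 0.13 (adjusted p = 0.017 and 0.0014). Wee1, a kinase that holds back mitosis, had 8.95, 9.27, 9.50 and 9.06 in EtOH+EA livers, against 6.94, 7.90, 8.12 and 8.19 in control livers (1.41 ± 0.31, adjusted p = 0.01). Clock fell, with 7.67, 7.50, 7.27 and 7.41 in EtOH+EA livers, against 8.26, 8.09, 8.20 and 8.04 in control livers (-0.68 ± 0.14, adjusted p = 0.0059). Nfil3, a repressor that competes with DBP and TEF, fell by 0.70 ± 0.17 (adjusted p = 0.016). Arntl had 6.35 to 6.44 in EtOH+EA livers and 6.85 to 7.27 in control livers (-0.59 ± 0.17, adjusted p = 0.032), a call kept without control replicate 3 or 4 and lost without any other of the 8 arrays (adjusted p up to 0.085). Npas2, a relative of Clock, was not past the threshold (adjusted p = 0.97).

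Several of these genes also differed between EtOH+EA and EtOH livers. Per3, at 7.30, 7.82, 7.35 and 7.66 on the EtOH arrays, was higher in EtOH+EA by 1.05 ± 0.15 (adjusted p = 0.0066) and Dbp by 1.22 ± 0.20 (adjusted p = 0.01), and both calls held in 8 of 8 fits that left out 1 array. Clock was lower by -0.77 ± 0.14 (adjusted p = 0.015, lost without EtOH+EA replicate 3) and Arntl by -0.89 ± 0.17 (adjusted p = 0.018, lost without EtOH+EA replicate 3 or 4). Cry2 (0.53 ± 0.10, adjusted p = 0.018), Tef (0.66 ± 0.13, adjusted p = 0.025) and Wee1 (1.47 ± 0.31, adjusted p = 0.031) passed too, with the call kept in 5, 2 and 2 of 8 such fits. For EtOH minus control, which shares the control arrays, none of the 21 genes of these 3 lists passed, with -0.02 for Per3, -0.41 for Dbp and 0.09 for Clock. Over all genes 2.99% were higher and 4.01% lower in that contrast, so the lack of calls does not stand apart. The labels give 1 hour of sacrifice for all mice.

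The bases before Ciart and Tef are printed as those of a repressor and of an output gene that rose, with the E-box (CACGTG, which reads the same on both strands) in capitals. They are RefSeq's, build GRCm38.p6, 5′ to 3′ on the strand of the gene, Ciart at chr3:95882229-95882478 on the minus strand and Tef at chr15:81802423-81802672 on the plus strand.
Ciart: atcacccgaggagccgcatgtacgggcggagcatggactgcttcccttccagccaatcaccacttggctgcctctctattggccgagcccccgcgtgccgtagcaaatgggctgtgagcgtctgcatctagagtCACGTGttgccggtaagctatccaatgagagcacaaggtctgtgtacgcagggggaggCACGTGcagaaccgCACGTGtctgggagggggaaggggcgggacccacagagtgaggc
Tef: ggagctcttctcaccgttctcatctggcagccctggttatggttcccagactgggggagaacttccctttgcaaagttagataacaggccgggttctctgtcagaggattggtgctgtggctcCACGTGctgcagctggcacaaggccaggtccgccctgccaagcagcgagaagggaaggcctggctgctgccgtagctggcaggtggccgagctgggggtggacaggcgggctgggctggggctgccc
Ciart held 3 E-boxes, 116, 58 and 44 bases before its start, and Tef 1, at 127 bases. Of all 32851 promoters 6.02% held an E-box in these 250 bases, against 4 of the 8 repressors and 1 of the 5 output genes that had a promoter sequence. The repressors with an E-box were Ciart, which rose, and Bhlhe41, Cry1 and Per1, which did not pass, while the risen genes Per3, Cry2, Nr1d2, Dbp and Usp2 had none in these bases.

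**Figure D4:**
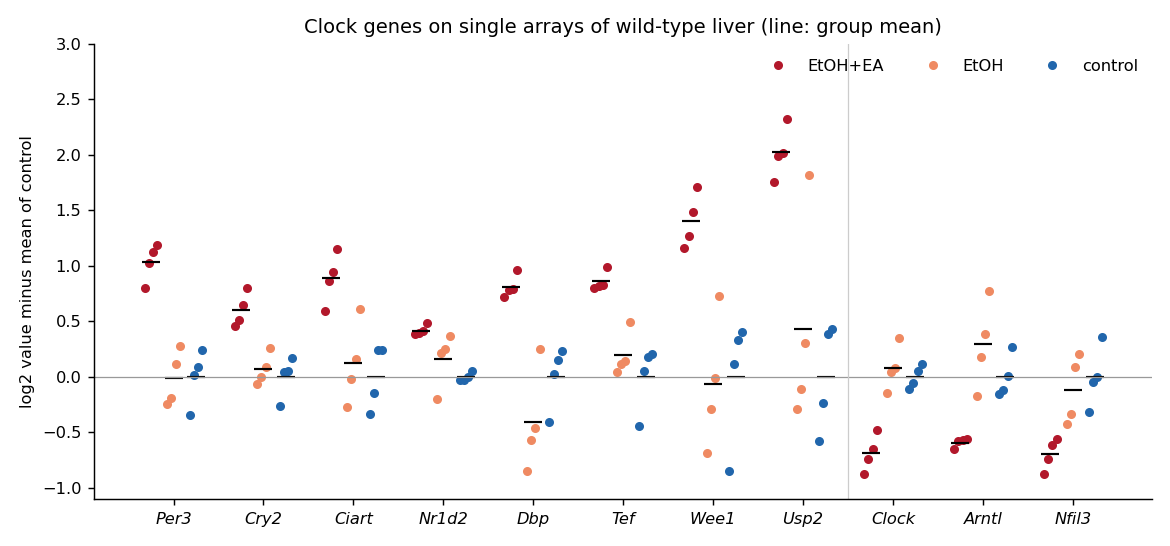
Deposited log2 values of 8 clock repressors and outputs (left of the grey line) and 3 activators and partners (right of it) on single wild-type arrays, less the mean of the 4 control arrays, with a line at each group's mean. Only genes past the threshold are drawn, so Per1, Per2, Nr1d1 and Npas2 are left out. Nfil3, drawn right of the line, is itself a repressor. Among those drawn all 4 EtOH+EA arrays lie above the control arrays in the first 8 genes and below them in the last 3. The lowest control array of Usp2, Wee1, Tef, Dbp, Per3, Cry2 and Ciart is replicate 1.

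Genes of nuclear RNA-binding proteins lay on both sides, at counts near the shares over genes with an uncompressed probe set. Of 27 splicing and nuclear RNA-binding proteins 5 were higher and 7 lower (median difference -0.00023), and 3 were higher without control replicate 2 or 4 or EtOH+EA replicate 2, 3 or 4. Among the 23 uncompressed members 4 were higher and 7 lower, beside 15.3% and 27.8% of all such genes. Sfpq, a paraspeckle protein, had 8.07, 8.13, 8.25 and 8.14 in EtOH+EA livers, against 8.96, 9.01, 9.05 and 9.01 in control livers (-0.86 ± 0.06, adjusted p = 2.1e-05). Rbm14, another paraspeckle protein, had 7.73, 7.79, 7.85 and 7.80 in EtOH+EA livers, against 8.23, 8.43, 8.43 and 8.44 in control livers (-0.59 ± 0.05, adjusted p = 4.4e-05). Hexim1, the inhibitor of the elongation kinase P-TEFb, had 8.23, 7.90, 8.10 and 7.90 in EtOH+EA livers, against 9.34, 9.36, 9.45 and 9.43 in control livers (-1.37 ± 0.09, adjusted p = 1.1e-05). No array of one group reached the other in these 3 genes. On the EtOH arrays Sfpq had 8.94, 9.13, 9.02 and 9.02, and Hexim1 had 9.13, 8.97, 8.85 and 9.05. Each of the 3 genes was lower in EtOH+EA than in EtOH livers, Sfpq by -0.88 ± 0.06 (adjusted p = 9.1e-05), Rbm14 by -0.80 ± 0.05 (3.1e-05) and Hexim1 by -0.97 ± 0.09 (0.00078), and each of these calls held in 8 of 8 fits that left out 1 array. Of the probe sets that name Sfpq alone 3 of 6 were lower, none higher. Hnrnpa1, which represses splice sites, rose by 0.63 ± 0.08 (adjusted p = 0.00039). The splicing factor Srsf5 passed with 0.42 ± 0.11 (adjusted p = 0.023), a call lost without control replicate 2 or 4 or EtOH+EA replicate 2 or 4 (adjusted p up to 0.063), and was higher than in EtOH livers by 0.70 ± 0.11 (adjusted p = 0.0087, held in 8 of 8).

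The cytosolic chaperones had 5 of 23 higher and 6 lower, and 3 higher without control replicate 1 or 2 and 2 without EtOH+EA replicate 4. Among the 21 uncompressed members 5 were higher and 6 lower, beside 15.3% and 27.8% of all such genes. The inducible Hsp70 gene Hspa1a had 6.34 to 6.46 in EtOH+EA livers and 6.90 to 7.26 in control livers (-0.68 ± 0.08, adjusted p = 0.00043). Its co-chaperones Dnajb1 (-0.69 ± 0.09, adjusted p = 0.00054), Dnajb4 (-0.77 ± 0.09) and Bag3 (-0.60 ± 0.10) fell as well. The small heat shock proteins Hspb1 (0.79 ± 0.19, adjusted p = 0.017, and 0.051 without EtOH+EA replicate 4) and Hspb8 (0.69 ± 0.11, adjusted p = 0.0017) were higher. Against EtOH livers 8 of the 23 were lower and 0 higher, where 1.62% of all genes were lower and 1.56% higher. In that contrast Dnajb1 was at -0.71 ± 0.09 (adjusted p = 0.0048, held in 8 of 8 fits) and Hspa1a at -0.42 ± 0.08 (adjusted p = 0.026, kept in 3 of 8).

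In the endoplasmic reticulum the chaperone list had 0 of 20 higher and 2 lower (1 lower without control replicate 1 or 4 or any EtOH+EA array), and the list of stress sensors, degradation and translocon 1 of 24 higher and 6 lower. In the second of these 3 were lower without control replicate 3 or 4, and none was higher without control replicate 2, 3 or 4 or EtOH+EA replicate 1, 3 or 4. Among the 20 uncompressed members of that second list 1 was higher and 6 lower, beside 15.3% and 27.8% of all such genes. Edem3, a mannosidase that marks glycoproteins for degradation, had 9.01 to 9.14 in EtOH+EA livers and 9.45 to 9.67 in control livers (-0.46 ± 0.06, adjusted p = 0.00049). It was lower than in EtOH livers by -0.34 ± 0.06 (adjusted p = 0.013, held in 8 of 8). Hspa5, the main chaperone there, did not pass against control (-0.24 ± 0.12, adjusted p = 0.2) and was lower than in EtOH livers by -0.55 ± 0.12 (adjusted p = 0.03, kept in 3 of 8). The call of Xbp1, the splice-activated stress factor, was lost with a replicate block (0.36 ± 0.11, adjusted p = 0.04, and 0.081 with the block), and held only without control replicate 1 or EtOH+EA replicate 2 among the fits that left out 1 array (up to 0.11). Of 34 proteasome subunits 1 was higher (0 without any 1 array but control replicate 4) and 3 lower (1 without any control array or EtOH+EA replicate 4, and 0 without EtOH+EA replicate 3).

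The cytosolic tRNA synthetases, which charge tRNAs with amino acids, had 0 of 19 higher and 8 lower. Cars had 7.17, 7.08, 7.00 and 7.00 in EtOH+EA livers, against 8.01, 7.96, 7.75 and 7.89 in control livers (-0.84 ± 0.07, adjusted p = 3.1e-05). Aars had 9.39, 9.36, 9.38 and 9.21 in EtOH+EA livers, against 9.69, 9.70, 9.69 and 9.75 in control livers (-0.37 ± 0.04, adjusted p = 0.0001). Neither gene overlapped between the groups, and Tars (-0.42 ± 0.08, adjusted p = 0.0032) and Iars (-0.33 ± 0.05, adjusted p = 0.0016) fell too. Yars was lower on a compressed probe set (-0.0006, adjusted p = 0.00025). Against EtOH livers 6 of the 19 were lower and 0 higher, where 1.62% of all genes were lower and 1.56% higher. In that contrast Aars was at -0.37 ± 0.04 (adjusted p = 0.0011) and Tars at -0.54 ± 0.08 (adjusted p = 0.0057), both held in 8 of 8 fits. The ATF4 targets, which answer amino acid shortage, had 3 of 18 higher and 3 lower (1 lower without control replicate 2 or 3 or EtOH+EA replicate 1, 2 or 4). Trib3, a pseudokinase, rose by 1.00 ± 0.17 (adjusted p = 0.0025). The call of the asparagine synthetase Asns (0.70 ± 0.19, adjusted p = 0.027) was lost without control replicate 2 or 3 or EtOH+EA replicate 1 or 4 (up to 0.075). That of the hormone gene Fgf21 (-1.05 ± 0.29, adjusted p = 0.029) held only without control replicate 1 among such fits (up to 0.078). Of 20 cytosolic ribosomal proteins 0 were higher and 5 lower, and the lower count stayed at 5 only without control replicate 2 and was 0 to 3 without any other array, the lowest without EtOH+EA replicate 3.

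Male-biased genes of mouse liver were lower and female-biased ones higher in EtOH+EA than in control. The pattern of growth hormone release keeps these genes apart between the sexes. Of 12 measured male-biased genes 0 were higher and 7 lower (8 with a replicate block, median difference -0.61), and among 8 female-biased genes 4 rose and none fell (0.66), of which Cyp2b9 and Acot3 are also on other lists. In EtOH against control, which shares the control arrays, 7 male-biased genes were lower and 2 female-biased ones higher (4.01% and 2.99% over all genes). Against EtOH livers no male-biased gene passed and 1 female-biased gene was higher (1.56% over all genes). Hsd3b5 had 9.61, 10.54, 8.19 and 7.31 in EtOH+EA livers, against 12.48, 12.41, 12.23 and 12.29 in control livers (-3.44 ± 0.62, adjusted p = 0.0034). All EtOH+EA arrays lay below the control arrays, and they were spread over more than 3 units. Cyp2u1 had 7.56, 7.73, 7.27 and 7.25 in EtOH+EA livers, against 8.69, 8.72, 8.58 and 8.83 in control livers (-1.25 ± 0.14, adjusted p = 0.00023). The adipokine gene Serpina12 (-0.97 ± 0.19), the oxysterol hydroxylase Cyp7b1 (-0.95 ± 0.20) and the organic anion carrier Slco1a1 (-0.68 ± 0.16, adjusted p = 0.014) fell too. Cyp4a12a, a male-specific hydroxylase of arachidonic acid, was the clearest exception, with 10.82 to 11.51 in EtOH+EA livers and 11.19 to 11.38 in control livers (-0.03 ± 0.14, adjusted p = 0.92). Elovl3, a fatty acid elongase, did not pass in the main fit (-1.44 ± 0.45, adjusted p = 0.051). It passed with a replicate block (0.03), after quantile normalization (0.017), by rank product, and without EtOH+EA replicate 1 or 2 (down to 0.04). Trim24, a female-biased coregulator, had 8.63 to 8.98 in EtOH+EA livers and 7.54 to 7.88 in control livers (1.09 ± 0.15, adjusted p = 0.00079). Of the 15 genes of the growth hormone and IGF axis 0 were higher and 3 lower (1 without control replicate 4 or EtOH+EA replicate 2 or 4), among them Igfbp3 (-0.47 ± 0.10, adjusted p = 0.0078), while Igf1 itself was at 12.21 to 12.26 in EtOH+EA livers and 12.16 to 12.26 in control livers (adjusted p = 0.52).

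Acute phase proteins, which the liver secretes in inflammation, had 9 of 20 genes lower and 1 higher (median difference -0.03), and 9 lower with any 1 array left out, while none was higher without control replicate 2 or 4 or EtOH+EA replicate 3 or 4. Serum amyloid gene Saa1 had 8.18, 8.19, 8.13 and 8.00 in EtOH+EA livers, against 9.98, 9.31, 9.93 and 9.79 in control livers (-1.63 ± 0.18, adjusted p = 0.00024). Saa2 had 7.16, 7.30, 7.15 and 7.12 in EtOH+EA livers, against 8.65, 8.17, 8.64 and 8.52 in control livers (-1.32 ± 0.14, adjusted p = 0.00019). Apcs, the amyloid P component, had 11.75, 12.01, 12.11 and 11.87 in EtOH+EA livers, against 12.82, 12.85, 12.73 and 12.79 in control livers (-0.86 ± 0.09, adjusted p = 0.00017). The groups did not overlap in any of these, and Saa1 and Saa2 are near copies whose probes may read each other. The fibrinogen chain Fgb (-0.32 ± 0.05, adjusted p = 0.0019) and haptoglobin, Hp (-0.26 ± 0.05, adjusted p = 0.004), fell by less. Against EtOH livers Saa1 gave 0.20 ± 0.18 (adjusted p = 0.7), while 3 of the 20 genes were lower and 0 higher (1.62% and 1.56% over all genes). In EtOH against control, which shares the control arrays, 3 were lower and 0 higher (4.01% and 2.99% over all genes). Of 18 interferon-stimulated genes 2 were higher (1 without control replicate 2 or 4, and 0 without control replicate 1 or EtOH+EA replicate 3 or 4) and 2 lower (1 without any array but control replicate 2).

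Markers of Kupffer cells, the macrophages of the liver, moved with the acute phase genes: 9 of 13 were lower and 1 higher (median difference -0.22), and their mean level was 8.27 to 8.31 on EtOH+EA arrays and 8.41 to 8.52 on control arrays. Adgre1, an adhesion receptor of macrophages, had 7.71, 7.61, 7.56 and 7.61 in EtOH+EA livers, against 8.14, 8.09, 8.21 and 8.31 in control livers (-0.56 ± 0.08, adjusted p = 0.00088). C1qa, a complement chain that macrophages make, fell by 0.35 ± 0.05 (adjusted p = 0.0014), and Timd4 passed on a compressed probe set (-0.00039, adjusted p = 0.00087). Clec4f, the most specific of these markers, had 8.93 to 9.02 in EtOH+EA livers and 9.09 to 9.31 in control livers (-0.23 ± 0.06, adjusted p = 0.03, and 0.053 with a replicate block). Its call was also lost without control replicate 3 or 4 or EtOH+EA replicate 2, 3 or 4 (up to 0.08). With the block 7 of the 13 were lower. In EtOH against control, which shares the control arrays, 8 of the 13 were lower (4.01% over all genes). None passed in EtOH+EA against EtOH, where 1.56% of all genes were higher and 1.62% lower. In whole liver, fewer cells of a type and less RNA per cell cannot be told apart, and the part of Kupffer cells in the other results was not tested.

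The other cell types gave smaller counts. Of 10 sinusoidal endothelial markers 4 were higher and 0 lower (1 lower without control replicate 1 or EtOH+EA replicate 3, and 5 and 1 with a replicate block), with mean levels of 8.70 to 8.77 on EtOH+EA arrays and 8.56 to 8.69 on control arrays, and Lyve1, a hyaluronan receptor of these cells, rose by 0.71 ± 0.17 (adjusted p = 0.014). Of 11 stellate cell markers 2 were higher, or 1 without control replicate 4 or EtOH+EA replicate 1 or 4, and 0 lower (mean levels 8.16 to 8.20 and 8.16 to 8.23). Of 10 hepatocyte markers 0 were higher and 3 lower, 1 and 2 with a replicate block, and 1 lower without control replicate 1 or EtOH+EA replicate 4 (mean levels 13.69 to 13.71 and 13.72 to 13.75). Cholangiocyte markers had 1 of 7 higher and 1 lower, T, NK and B cell markers 1 of 9 and 0, and neutrophil and monocyte markers 0 of 7 and 0, all on compressed probe sets. The higher count was 0 for the first without control replicate 3 or EtOH+EA replicate 1, 2 for the second without control replicate 3 and 0 without control replicate 4, and 1 for the third without control replicate 1 or 2 or EtOH+EA replicate 2. Erythroid markers had 0 of 4 in either direction, at 7.20 to 7.33 on EtOH+EA arrays and 7.32 to 7.39 on control arrays.

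Part of the genes of nitrogen disposal rose. Of 10 measured genes of the urea cycle and its feeders 4 were higher and 0 lower (6 and 0 with a replicate block). In EtOH against control, which shares the control arrays, 4 of them were higher too (2.99% over all genes). None passed in EtOH+EA against EtOH, where 1.56% of all genes were higher and 1.62% lower. Oat, ornithine aminotransferase, which sits in the hepatocytes around the central vein, had 12.32, 12.30, 12.62 and 12.51 in EtOH+EA livers, against 11.43, 11.34, 11.27 and 11.39 in control livers (1.08 ± 0.12, adjusted p = 0.00025). Asl, argininosuccinate lyase, had 11.15, 11.14, 11.25 and 11.44 in EtOH+EA livers, against 10.43, 10.62, 10.51 and 10.57 in control livers (0.72 ± 0.11, adjusted p = 0.0011). The groups were apart in both genes. Arg1, arginase, passed with 0.43 ± 0.12 (adjusted p = 0.036), a call that held only without control replicate 2 among the 8 fits that left out 1 array (up to 0.095). Cps1, the first enzyme of the cycle, did not pass in the main fit (0.12 ± 0.05, adjusted p = 0.1). It passed with a replicate block (0.018) and by rank product (false discovery rate 0.026), but not after quantile normalization (0.34). Of 12 pericentral genes 5 were higher and 2 lower (1 lower without any array but control replicate 4), among the higher ones the ammonium channel Rhbg, with 8.06 to 8.49 in EtOH+EA livers and 7.00 to 7.47 in control livers (1.16 ± 0.14, adjusted p = 0.00031), and the glutamate carrier Slc1a2 (0.57 ± 0.08, adjusted p = 0.00082). Of 10 periportal genes 3 were higher and 1 lower, but 1 was higher without control replicate 2 or EtOH+EA replicate 3 and 0 without any other array, and none was lower without any array but EtOH+EA replicate 2.

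**Figure D5:**
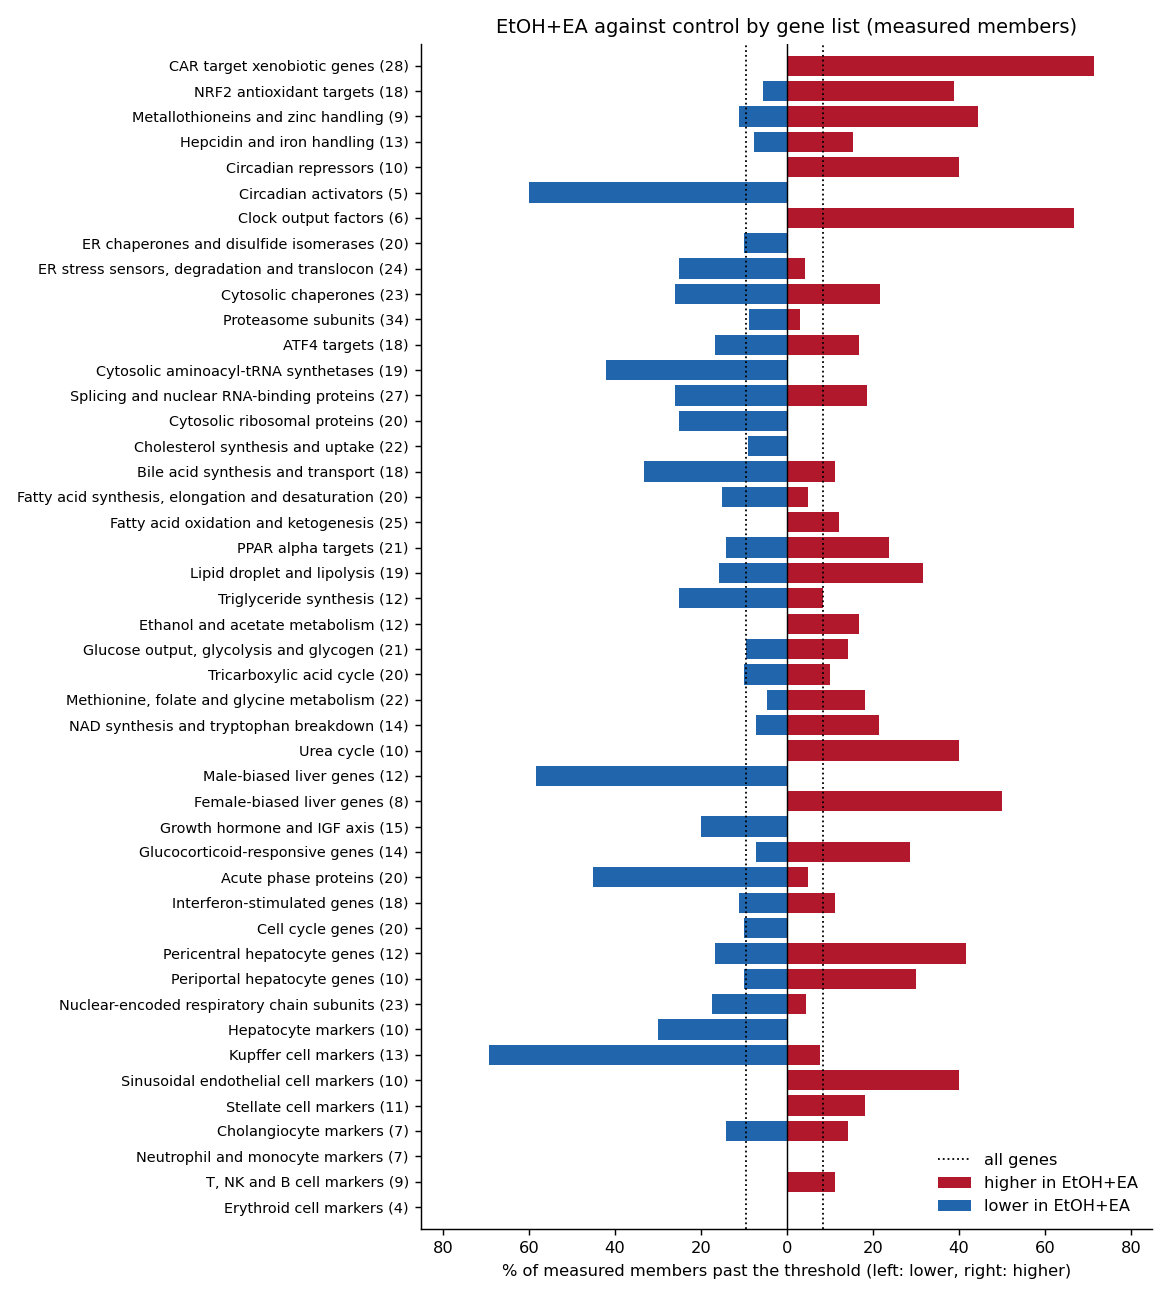
Share of measured members of each gene list and marker list past the threshold in EtOH+EA against control, higher to the right in red and lower to the left in blue, with the number measured in brackets and dotted lines at the shares over all genes (8.27% higher, 9.63% lower). CAR target xenobiotic genes have 20 of 28 higher and 0 lower, and Kupffer cell markers 9 of 13 lower. The shares over genes with an uncompressed probe set (15.3% higher, 27.8% lower) are not drawn.

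Genes of glucose output and storage did not move one way: 3 of 21 were higher and 2 lower (1 lower without EtOH+EA replicate 3). G6pc, glucose-6-phosphatase, had 9.92, 9.61, 9.58 and 10.79 in EtOH+EA livers, against 11.63, 12.02, 11.84 and 11.81 in control livers (-1.85 ± 0.45, adjusted p = 0.018). Ppp1r3c, which targets a phosphatase to glycogen, had 8.43, 9.08, 8.75 and 8.45 in EtOH+EA livers, against 9.40, 10.27, 10.29 and 10.48 in control livers (-1.43 ± 0.26, adjusted p = 0.0033). Gys2, the glycogen synthase of liver, rose, with 11.01, 11.09, 11.20 and 11.23 in EtOH+EA livers, against 10.45, 10.67, 10.71 and 10.74 in control livers (0.49 ± 0.09, adjusted p = 0.0044). All 3 were separated between the groups, and Gys2 was also higher than in EtOH livers (0.69 ± 0.09, adjusted p = 0.0057, held in 8 of 8 fits). In the tricarboxylic acid cycle 2 of 20 were higher and 2 lower (1 lower without any array but EtOH+EA replicate 2), with the dehydrogenase Idh2 up by 0.54 ± 0.05 (adjusted p = 9.2e-05) and the citrate synthase Cs down (-0.46 ± 0.08, adjusted p = 0.002). Respiratory chain subunits had 1 of 23 higher and 4 lower, with 7 lower without control replicate 1 and 2 without control replicate 4.

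The lists of lipid genes held members that were higher and members that were lower. PPAR alpha, a receptor for fatty acids, had 5 of 21 measured targets higher and 3 lower, and 8 and 3 with a replicate block. Without control replicate 1 the higher count was 2, and it was 3 without control replicate 2 or EtOH+EA replicate 1 or 4. The lower count was 1 without control replicate 2 and 0 without control replicate 3 or 4 or EtOH+EA replicate 1, 3 or 4. Cyp4a31, a fatty acid hydroxylase, had 8.65, 8.47, 8.42 and 8.79 in EtOH+EA livers, against 6.96, 7.07, 7.31 and 7.13 in control livers (1.46 ± 0.17, adjusted p = 0.00035). Acot3 had 9.61, 10.52, 10.32 and 10.45 in EtOH+EA livers, against 7.31, 7.85, 8.56 and 8.64 in control livers (2.13 ± 0.53, adjusted p = 0.019). The groups did not overlap in these genes, which for Acot3 was a condition of its choice. The regulator of triglycerides Creb3l3 rose by 0.30 ± 0.04 (adjusted p = 0.00068), and the pantetheinase Vnn1 was lower with -1.12 ± 0.31 (adjusted p = 0.029), a call that held only without control replicate 1 or 2 among the 8 fits that left out 1 array (up to 0.083).

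Of 25 genes of fatty acid oxidation 3 were higher (1 without control replicate 3 or EtOH+EA replicate 1) and 0 lower (1 without control replicate 1), and 4 and 1 with a replicate block. Of 20 genes of fatty acid synthesis 1 was higher (0 without control replicate 3) and 3 lower (1 without control replicate 2 or 4 or EtOH+EA replicate 4), with Fasn (-0.53 ± 0.32, adjusted p = 0.3) and Scd1 (-0.25 ± 0.09, adjusted p = 0.08) not past the threshold. Lipid droplet genes had 6 of 19 higher and 3 lower, and 2 higher without EtOH+EA replicate 4. Pnpla2, the adipose triglyceride lipase, had 8.58, 8.87, 8.72 and 8.89 in EtOH+EA livers, against 8.28, 8.19, 8.37 and 8.30 in control livers (0.48 ± 0.08, adjusted p = 0.0015), and was higher than in EtOH livers by 0.41 ± 0.08 (adjusted p = 0.016, kept in 5 of 8). The droplet coat gene Plin2 did not pass (0.30 ± 0.14, adjusted p = 0.17), and Cidec passed on a compressed probe set (0.00044, adjusted p = 0.017, and 0.052 without EtOH+EA replicate 4). In triglyceride synthesis 1 of 12 was higher and 3 lower (1 lower without control replicate 3 or EtOH+EA replicate 3): the phosphatidate phosphatase Lpin2 rose by 0.85 ± 0.14 (adjusted p = 0.0018), and Agpat2, an acyltransferase, fell by 0.59 ± 0.10 (adjusted p = 0.0019). Cholesterol synthesis and uptake had 0 of 22 higher (1 without control replicate 2) and 2 lower (1 without control replicate 1, 3 or 4 or EtOH+EA replicate 2, 3 or 4). One of them was Insig2, which retains SREBP in the endoplasmic reticulum (-0.64 ± 0.18, adjusted p = 0.037), a call that held only without control replicate 2 or EtOH+EA replicate 1 among the 8 fits that left out 1 array (up to 0.1).

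Bile acid genes had 2 of 18 higher and 6 lower, and 1 and 6 with a replicate block. The higher count was 2 only without control replicate 2, 1 without EtOH+EA replicate 3 and 0 without any other array. Among the 16 uncompressed members 2 were higher and 4 lower, beside 15.3% and 27.8% of all such genes. Cyp7a1, the rate-limiting enzyme of bile acid synthesis, had 9.97, 10.94, 10.73 and 10.82 in EtOH+EA livers, against 9.03, 10.87, 10.81 and 9.38 in control livers, and the groups overlapped (0.59 ± 0.59, adjusted p = 0.56). Hsd3b7, a later enzyme of the pathway, had 11.59 to 11.83 in EtOH+EA livers and 12.08 to 12.37 in control livers (-0.47 ± 0.07, adjusted p = 0.0016). Cyp8b1, which makes cholic acid, passed with 0.72 ± 0.22 (adjusted p = 0.048), a call that held only without control replicate 2 among the 8 fits that left out 1 array (up to 0.12). The ethanol list had 2 of 12 higher and 0 lower (1 and 1 with a replicate block, and 1 higher without control replicate 1, 3 or 4 or EtOH+EA replicate 1 or 3): Adh1, the main alcohol dehydrogenase, had 13.30 to 13.40 in EtOH+EA livers and 13.10 to 13.26 in control livers (0.19 ± 0.04, adjusted p = 0.014), and Aldh1a1 is the other. Aldh2, the mitochondrial acetaldehyde dehydrogenase (0.015 ± 0.015, adjusted p = 0.55), and Cyp2e1, the ethanol-inducible cytochrome (on a compressed probe set, adjusted p = 0.13), did not pass.

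In NAD synthesis and tryptophan breakdown 3 of 14 were higher and 1 lower (2 lower with a replicate block, and 0 without any array but control replicate 3 or EtOH+EA replicate 2). Nmrk1, a nicotinamide riboside kinase, had 8.09, 8.33, 8.38 and 8.34 in EtOH+EA livers, against 7.17, 7.04, 7.20 and 7.16 in control livers (1.14 ± 0.17, adjusted p = 0.0013). Nampt, the enzyme that limits NAD salvage, had 9.64, 9.73, 9.94 and 9.99 in EtOH+EA livers, against 9.14, 8.53, 8.81 and 8.92 in control livers (0.98 ± 0.15, adjusted p = 0.0016). In both genes every EtOH+EA array was above every control array, and Nmrk1 was higher than in EtOH livers by 0.95 ± 0.17 (adjusted p = 0.016, lost without EtOH replicate 1 or EtOH+EA replicate 3). Glucocorticoid-responsive genes had 4 of 14 higher (2 without control replicate 2 or 3 or EtOH+EA replicate 3, and 1 without EtOH+EA replicate 1) and 1 lower, led by the receptor co-chaperone Fkbp5, with 9.01 to 9.30 in EtOH+EA livers and 7.82 to 8.47 in control livers (1.12 ± 0.16, adjusted p = 0.00097), while the phosphatase Dusp1 fell by 0.87 ± 0.13 (adjusted p = 0.0014). Nr3c1, the receptor, passed with 0.27 ± 0.07 (adjusted p = 0.023), lost without control replicate 3 or EtOH+EA replicate 1, 2 or 3 (up to 0.063). Methionine, folate and glycine metabolism had 4 of 22 higher and 1 lower, the last being the glycine decarboxylase Gldc (-0.63 ± 0.13, adjusted p = 0.0089), and cell cycle genes had 0 of 20 higher and 2 lower (1 and 3 with a replicate block, and 1 lower without control replicate 2 or 4 or EtOH+EA replicate 1, 3 or 4).

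Against EtOH livers, the comparison in which the mice differ in ellagic acid alone, 497 probe sets were higher and 569 lower in EtOH+EA, together 2.37% of the 45037, and by gene 1.56% were higher and 1.62% lower. Leaving out 1 array took these counts as low as 183 and 153, both without EtOH+EA replicate 3. Of the 15 genes higher than in control, Dclre1a gave one of the largest values: it had 9.21, 9.55, 10.24 and 9.71 in EtOH+EA livers, against 8.09, 8.09, 7.54 and 8.32 in EtOH livers, and exceeded EtOH livers by 1.66 ± 0.28 (adjusted p = 0.011) and control livers by 1.76 ± 0.28 (adjusted p = 0.0015). Gpcpd1 had 9.99, 10.00, 10.22 and 10.16 in EtOH+EA livers, against 8.62, 8.35, 8.15 and 9.16 in EtOH livers and 8.34, 8.66, 8.15 and 8.27 in control livers, and exceeded EtOH livers by 1.52 ± 0.24 (adjusted p = 0.0091). Both calls held in 8 of 8 fits that left out 1 array. These genes were also higher in EtOH+RSV than in control livers, by 1.72 for Dclre1a (adjusted p = 0.0017) and 1.46 for Gpcpd1 (0.0019). EtOH+EA minus EtOH+RSV was 0.04 and 0.28, neither past the threshold. Slc16a5 (1.01 ± 0.23, adjusted p = 0.045), Slc41a2 (-0.86 ± 0.16, adjusted p = 0.018) and Tubb2a (lower, adjusted p = 0.015) passed as well, with the call kept in 2, 6 and 7 of 8. Egr1 gave 1.56 ± 0.46 (adjusted p = 0.11) and Usp2 1.59 ± 0.39 (adjusted p = 0.054).

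Against EtOH+RSV livers 3 probe sets were higher and 8 lower, 0.0244% of the 45037. By gene there were 3, or 0.0165%, namely Rbm14 (-0.66, adjusted p = 0.00017), Sfpq (-0.52, adjusted p = 0.013) and Amacr, a racemase of bile acid synthesis (0.18, adjusted p = 0.031), the last chosen after its value was seen. Sfpq lay at 8.15 ± 0.08 in EtOH+EA, 8.67 in EtOH+RSV and 9.01 ± 0.04 in control livers. A p that misses the threshold does not show that the polyphenols act alike.

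On the separate arrays of CAR-deficient mice, 3 on EtOH+EA and 3 on control, 9 of the 15 higher genes lay wholly above control and 9 of the 15 lower genes wholly below it, and 0 lay wholly on the other side. Over all genes there, 11.4% lay wholly above and 12.5% wholly below. No test was run, since sizes are not comparable between genotypes. Cyp2b10 had 6.70, 6.30 and 6.56 on CAR-deficient EtOH+EA arrays, against 6.26, 6.05 and 6.22 on CAR-deficient control arrays. Mt2 had 12.21, 13.01 and 12.99 on EtOH+EA arrays, against 9.99, 8.44 and 8.90 on control arrays of these mice. Hsd3b5 had 6.27, 6.39 and 6.31 on their EtOH+EA arrays, against 12.14, 12.40 and 12.12 on their control arrays. These 3 genes kept the groups apart also without CAR, with a gap that was narrow for Cyp2b10 and wide for the others. Of the xenobiotic genes described above with Cyp2b10, Gsta2 (11.21 to 11.44 on EtOH+EA arrays, 9.30 to 9.72 on control arrays) also lay wholly above control there. So did Cyp2b9 (12.20 to 12.37 and 7.71 to 10.31), Cyp2c29 (11.70 to 12.17 and 9.68 to 10.24), Cyp2c38, Cyp2c37, Cyp3a11, Gstm1 and Abcc3. Gstm3 and Aldh1a1 overlapped. The part of CAR in these differences was not tested. Of the clock genes described above, Cry2 lay wholly above control (8.58 to 8.73 on EtOH+EA arrays, 8.09 to 8.37 on control arrays) and Nfil3 wholly below it (7.82 to 8.04 and 8.10 to 8.22), as in wild-type livers, and Per1 lay wholly below it (7.89 to 8.06 and 8.19 to 8.39). Usp2 (9.49 to 10.25 and 9.57 to 9.91), Dbp (11.68 to 12.14 and 12.01 to 12.27), Clock (7.84 to 8.34 and 7.79 to 8.01), Per2, Per3, Ciart, Nr1d1, Nr1d2, Tef, Wee1, Arntl and Npas2 overlapped between the diets, while Sfpq (9.11 to 9.52 and 9.85 to 9.95) and Rbm14 (8.55 to 8.94 and 9.15 to 9.43) lay wholly below control there too.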

How the data were processed

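Total liver RNA of 28 mice was hybridised by the authors to Affymetrix mouse genome arrays, 1 array per mouse. The authors summarised the probes with DFW, the wild-type and the CAR-deficient arrays apart, and deposited log2 values. DFW alters the variation of single probe sets, and most vary hardly at all. Values were used as deposited, with 64 control probe sets set aside.

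Gene names came from the platform's annotation, updated through Entrez numbers: 34945 probe sets named 1 gene, 932 several and 9160 none, and no gene was named from a probe set with several. Of several probe sets that name a gene alone, the one with the highest mean stood for the gene. The test was limma (3.58.1, R 4.3.3; lmFit and eBayes, two-sided) with 1 mean per diet over the 16 wild-type arrays (12 residual degrees of freedom) and Benjamini-Hochberg adjustment over 45037 probe sets at 0.05. The script was tested on simulated data. Figures and counts used Python 3.11.15, numpy 2.4.6, scipy 1.17.1, pandas 2.3.3 and matplotlib 3.10.9. Array numbers limit the precision.

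The genes named are the 15 higher and 15 lower of largest difference (past the threshold, not compressed, groups not overlapping), and members of 38 gene lists and 8 cell type marker lists, of which 634 of the 696 genes on the gene lists were measured. The comparison and the lists were chosen with earlier results of these data known, and lists have counts and medians only, with no test. The methods name a rank product, which was run as an alternative. The labels number the mice of each diet. Deviations of same-numbered EtOH+EA and control arrays from their group means correlated with r of 0.568, 0.303, 0.157 and 0.277. Different-numbered arrays were not compared, so a pairing of these groups was assumed and not shown, and the main fit leaves it out. Values with a replicate block stand beside the calls that it changed. That block spans all wild-type arrays, and so also ties in EtOH and EtOH+RSV mice by number. The block with only EtOH+EA and control in the fit kept 2154 of the 6398 calls in the same direction. Its values by gene are given only for genes of largest difference.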

Additional observations from a re-analysis of the deposited data

Results flagged for a closer look

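In the groups of 4 arrays behind the genes named, 1 array lay far from the other 3 in 13 of 250 groups, and chance gives about 1 in 20 such groups. In EtOH+EA livers these were replicate 4 for Tff3 (7.05, the others 6.66 to 6.71) and Aars (9.21, the others 9.36 to 9.39), replicate 3 for Dct (7.35, the others 6.54 to 6.66), Tef (10.64, the others 10.45 to 10.48), Dnajb1 (8.34, the others 8.09 to 8.12) and Hspb1 (8.08, the others 8.81 to 8.92), and replicate 1 for Clec4f (9.02, the others 8.93). In control livers these were replicate 1 for Dclre1a (7.49, the others 8.00 to 8.10), Hmox1 (7.27, the others 7.41 to 7.43), Rbm14 (8.23, the others 8.43 to 8.44) and Hspb8 (8.94, the others 9.06 to 9.07), replicate 3 for Slc39a4 (8.48, the others 8.42 to 8.43) and replicate 4 for Aars (9.75, the others 9.69 to 9.70).

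For 4 of the 125 uncompressed genes looked at, the groups did not overlap in either genotype and ran opposite ways. EtOH+EA minus control was 0.49 in wild-type and -0.44 in CAR-deficient livers for Gys2, 0.72 and -0.69 for Cyp8b1, -0.64 and 0.59 for Insig2, and -0.19 and 0.14 for Cp. Over all genes 27.3% did not overlap in wild-type livers. In CAR-deficient livers 11.4% lay wholly above control and 12.5% wholly below it. The share of all genes that ran opposite ways was not counted. The difference between the genotypes was not tested, since their arrays were summarised apart.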

How the results depend on the processing

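Against control, 2729 probe sets were higher and 3669 lower in EtOH+EA. The counts were 14693 and 9495 after quantile normalization, 784 and 1583 with each array centred on its median, 1188 and 2239 with compressed probe sets left out, 1605 and 2217 by rank product, 872 and 1752 for differences of at least 0.1, and 973 and 1637 with a replicate block and only these groups in the fit. With the replicate block over all 16 arrays they were 2800 and 4009, and 5577 of the 6398 calls stayed in the same direction. Leaving out 1 array gave 1821 (without EtOH+EA replicate 4) to 2193 (without control replicate 1) higher and 2636 (without EtOH+EA replicate 3) to 3152 (without control replicate 1) lower. Against EtOH, 497 and 569 became 307 and 359 (quantile), 226 and 265 (centred), 49 and 62 (only these groups), 1118 and 1401 (rank product), and 0 and 3 (replicate block, only these groups). The lower count was 900 for probe sets above the median level, 910 for uncompressed ones and 316 with the replicate block. Leaving out 1 array gave 183 to 539 higher and 153 to 613 lower, the lowest without EtOH+EA replicate 3 and the highest without EtOH replicate 3. Against EtOH+RSV, 3 and 8 became 1 and 5 (quantile, and also centred), 1 and 4 (without probe sets of shared sequence), 0 and 5 (only these groups), 0 and 4 (replicate block), 0 and 0 (replicate block, only these groups) and 823 and 665 (rank product). Leaving out 1 array gave 0 to 5 and 4 to 10. The causes were not tested.

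Of 540 alternative fits of the 30 genes of largest difference, 533 kept the call, 7 lost it and 0 reversed. Those lost were Acot3 and G6pc with 1 array left out, and Cyp2g1 (adjusted p = 0.053), Hsd3b5 (0.074), G6pc (0.062) and Ppp1r3c (0.058) with the replicate block and only these groups. The count of list members past the threshold, both directions together, moved by over 1.5 times in 1 of 38 lists with the probe set of largest spread, in 17 after quantile normalization and in 2 with the replicate block. Deviations of same-numbered arrays correlated with r of 0.233, 0.119 and -0.236 between EtOH+EA and EtOH. Between EtOH+EA and EtOH+RSV the r was 0.00186, -0.00657, -0.103 and 0.279. These groups were taken to share only a number, again without a comparison of different-numbered arrays.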
